A study of Homo sapiens with 4 samples.

Results

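Transcripts of 9 genes of the AP-1 transcription factor and its partners were followed in HEK293T, an established cell line of human embryonic kidney origin. The genes were FOS, FOSB, FOSL1, FOSL2, JUN, JUNB, JUND, ATF3 and MAFF, picked by symbol from a deposited table of 38972 genes, and all 9 were listed in it. RNA was sequenced in 4 libraries, 2 labelled oeFlag (overexpression of Flag, a short epitope tag) and 2 labelled oeRNH1 (overexpression of RNase H1, a nuclease that removes RNA paired with DNA in R-loops). All 4 come from the same cell line. The labels used here name no drug, dose, time or construct and do not say whether replicates were separate cultures. Standard errors and p-values therefore rest on the spread between these libraries, which may be technical. The fit draws each gene's spread towards that of genes of like level, so they do not measure the gene's own spread alone. The oeRNH1 libraries were compared with the oeFlag libraries, the single contrast of the series. The contrast was known when the genes were chosen, so their differences below are a description with no test.

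AP-1 is a dimer of basic leucine zipper (bZIP) proteins. JUN proteins pair with each other or with FOS proteins, whereas FOS proteins need a partner such as JUN to bind DNA. FOS, FOSB, JUN, JUNB and ATF3 are immediate early genes, transcribed within minutes of a growth factor or stress signal through kinases that act on serum response factor, CREB and JUN itself, while JUND is expressed more steadily. ATF3 is a stress-induced factor that dimerises with JUN proteins or with itself, and MAFF is a small MAF protein, which lacks a transactivation domain of its own and pairs with CNC factors such as NFE2L2. The dimers bind the TRE (TGACTCA) or the CRE (TGACGTCA), and several AP-1 genes carry such sites in their own promoters.

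Values are TPM, a length-corrected measure of how much each gene contributes to its own library, so levels of different genes can be compared and summed. It is relative within a library and shows nothing of the amount of RNA in a cell, and in bulk samples fewer cells expressing a gene and less RNA per cell cannot be told apart. The depth behind the values is unknown. TPM of RNASEH1, the gene encoding RNase H1, was 32.09 and 32.8 in the libraries labelled Flag and 29.93 and 29.67 in those labelled RNase H1 (limma adjusted p = 0.260), so the listed level does not show the overexpression the labels name. The gene with the symbol RNH1, a ribonuclease inhibitor, was at 56.88 and 54.64 against 51.54 and 58.32 TPM. Higher and lower therefore refer to the labels alone. Every pair of libraries correlated at 0.98 or more across genes (log2(TPM + 1), genes not being independent replicates). Of 6 transcripts chosen as markers of the HEK293 line, VIM, KRT8, KRT18, NEFL and NEFM stood at 27.62 TPM or more in every library and PAX2, a kidney developmental factor, at 1.29 to 1.86 TPM. The summed level of 4 endothelial markers was 0.60 to 0.79 TPM in the Flag and 0.58 to 1.30 TPM in the RNase H1 libraries. The sum of 6 fibroblast markers was 19.43 to 20.01 against 15.18 to 19.07 TPM, mostly COL1A1. For 8 markers of carcinoma epithelium it was 6.68 to 7.45 against 6.97 to 10.1 TPM, with KRT7 at 0 in all libraries. Within the HEK293 markers KRT8, KRT18 and VIM were called higher and NEFL and NEFM lower, and their part in the results below was not tested.

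Short promoter stretches show sites of the kind that AP-1, ATF and CREB proteins bind, and are given so that genes that were higher can be set beside JUN and JUND, which were not called. RefSeq windows of 300 bases (250 before to 50 after a transcript's start, GRCh38.p14) were found for 8 of the 9 genes, 10 windows in all, with a pair each for ATF3 and MAFF and none used for FOSL1. Each line gives 30 bases 5′ to 3′ in the direction of transcription, with capitals for the CRE half-site TGACG (or its complement), the full CRE, or the site TGACATCA known from the JUN promoter. The JUN and MAFF stretches lie wholly inside annotated exons of GENCODE release 29.
FOS, chr14:75278752-75278781, plus strand: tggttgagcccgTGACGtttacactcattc
FOSB, chr19:45467924-45467953, plus strand: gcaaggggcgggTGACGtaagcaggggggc
FOSL2, chr2:28392780-28392809, plus strand: ggagtctggggtTGACGtgagtgaatccac
MAFF, chr22:38201928-38201957, plus strand: cggccgggtcggTGACGTCAccgcatgact
JUNB, chr19:12791337-12791366, plus strand: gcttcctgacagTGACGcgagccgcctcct
JUND, chr19:18281805-18281834, minus strand: cggccgcccccaTGACGTCAacccacaagg
JUN, chr1:58784096-58784125, minus strand: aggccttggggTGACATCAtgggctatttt
ATF3, chr1:212565273-212565302, plus strand: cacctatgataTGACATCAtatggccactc

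On either strand, the half-site TGACG was present in 7 of the 8 genes with a window, beside 24.6% of all 35116 windows of the same length. The percentages here and below count windows, whereas the members are counted as genes, and ATF3 and MAFF have a pair of windows each. All windows were used without matching for GC content, which was 62.0% (JUN) to 77.0% (JUND) in the member windows with a half-site. It began 64, 60, 66 and 54 bases before the start in FOS, FOSB, FOSL2 and MAFF (positions -64, -60, -66 and -54). A half-site starting 70 to 45 bases before the start was found in these 4 genes and in 4.34% of all windows, a range set after the positions were seen. The half-site nearest the start lay at -86 in JUND, -123 in JUN and -137 in JUNB, outside that range. The full CRE TGACGTCA, which contains the half-site, lay in MAFF at -54 and in JUND at -200 (1.85% of windows). TGACATCA lay at -67 in JUN and at -123 in ATF3 (2.61% of windows). The TRE TGACTCA had 1 match, at position 5 after the start of FOSL2 (4.95% of windows). TATAAA was searched only in the direction of transcription (7.33% of windows). It was found at -33 in FOS, -30 in FOSB, -31 in JUNB and far upstream, at -230, in a window of ATF3. The CCAAT box (CCAAT, 34.6% of windows) was found in JUN, JUNB, JUND, ATF3 and MAFF. The CArG box, bound by serum response factor, had no match in the windows of these genes (1.29% of windows). The windows reach only 250 bases before the start, so CArG boxes further upstream could not be found. The full CRE was present in JUND, which was not called, and in MAFF, which was, at different distances. Whether these sites relate to the calls was not tested. A match describes letters in the window and is no measure of binding.

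For the FOS promoter, where the log2 fold change was largest, the 120 bases before the first annotated exon (chr14:75278654-75278773, plus strand) read as follows, with the half-site near the 3′ end.
FOS: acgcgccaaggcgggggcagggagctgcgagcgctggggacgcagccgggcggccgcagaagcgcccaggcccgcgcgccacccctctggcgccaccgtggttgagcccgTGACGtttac
For FOSB the corresponding stretch (chr19:45467875-45467994, plus strand) holds the half-site and the TATA box further 3′.
FOSB: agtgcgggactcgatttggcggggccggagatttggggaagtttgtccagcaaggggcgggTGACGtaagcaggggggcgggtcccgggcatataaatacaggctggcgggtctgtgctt

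**Figure D1:**
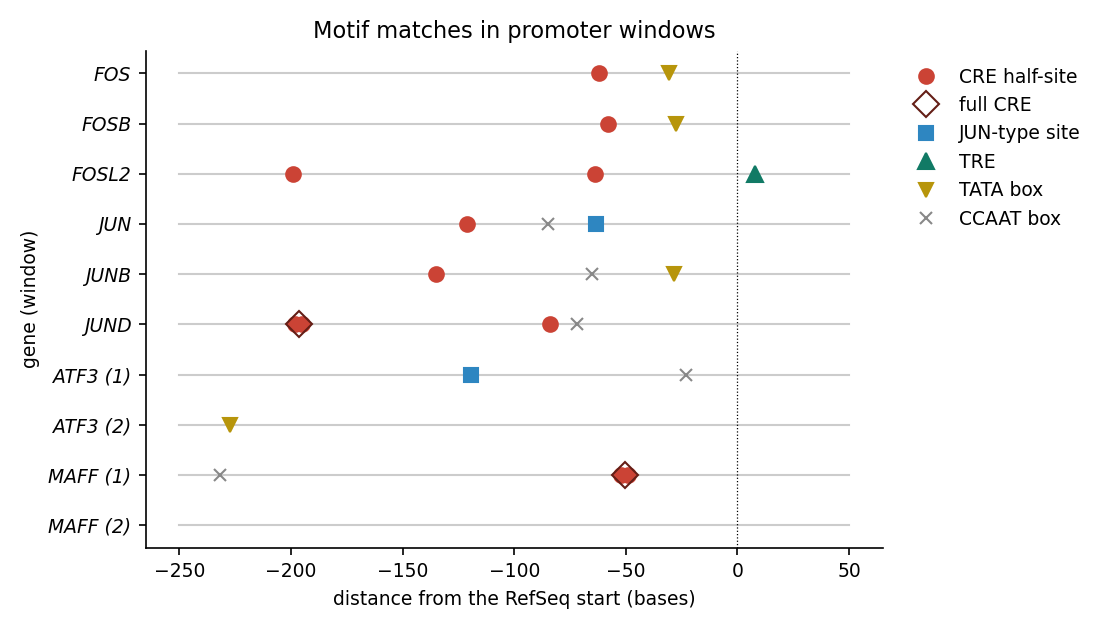
Motif matches along the promoter windows of 8 genes (rows; ATF3 and MAFF have a pair of windows each); the horizontal axis is the distance in bases from the RefSeq start, and each symbol is a match to the motif named in the legend. FOS, FOSB, FOSL2 and MAFF each have a half-site starting at -66 to -54. JUND has a half-site starting at -86 and a full CRE starting at -200.

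The FOS family was low in the libraries labelled Flag and each of its 4 members was higher in those labelled RNase H1. FOS (chromosome 14, 75278774 to 75282230, plus strand, GENCODE release 29, 4 exons), the prototype immediate early subunit, was listed at 4.28 and 3.88 TPM in the Flag libraries and at 18.47 and 16.25 TPM in the RNase H1 libraries. Both RNase H1 libraries lay far above both Flag libraries, and the ratio of the means was 4.25. On the log2(TPM + 1) scale used for all fold changes the difference was 1.85 ± 0.11 (standard error of a limma fit across all genes, 95% interval 1.57 to 2.13), the highest of the 9 genes and rank 23 of the 15651 genes tested.

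FOSL1 (chromosome 11, 65892049 to 65900573, minus strand), which encodes FRA1 and is itself a known AP-1 target, was listed at 2.37 and 2.4 TPM in the Flag and at 7.76 and 8.07 TPM in the RNase H1 libraries, a ratio of 3.32 (log2 1.40 ± 0.13, SE). FOSB (chromosome 19, 45467995 to 45475179, plus strand), whose gene span overlaps ERCC1 on the opposite strand without shared exons, stood at 2.24 and 2.82 TPM against 7.9 and 7.76 TPM, a ratio of 3.09 (log2 1.33 ± 0.14). The groups did not overlap for either gene. FOSL2 (chromosome 2, 28392448 to 28417312, plus strand), which encodes FRA2, stood at 3.79 and 4.17 TPM against 7.49 and 6.86 TPM, a ratio of 1.80 and the smallest of the family (log2 0.72 ± 0.13).

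The order inside the FOS family differed between the groups. FOS took 33.8% and 29.2% of the family's TPM in the Flag libraries, next to 29.9% and 31.4% for FOSL2, and the ranges of these genes overlapped. In the RNase H1 libraries FOS took 44.4% and 41.7% and FOSL2 18.0% and 17.6%, so FOS stood alone at the top and FOSL2 last. FOSB kept 19.5% ± 2.54 (SD, n = 2) and 19.5% ± 0.670, and FOSL1 18.4% ± 0.428 and 19.7% ± 1.47 of the family, with overlapping groups. The family's sum was 12.68 and 13.27 TPM in the Flag and 41.62 and 38.94 TPM in the RNase H1 libraries, 3.10 times as high.

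The JUN family was the larger part of the pool in the Flag libraries and differed less. JUN (chromosome 1, 58780788 to 58784327, minus strand), a gene with 1 exon and the main DNA-binding partner of FOS proteins, was listed at 99.12 and 99.03 TPM in the Flag and at 107.69 and 109.58 TPM in the RNase H1 libraries. Both RNase H1 libraries were above both Flag libraries, but the ratio was only 1.10 (log2 0.13 ± 0.05, 95% interval 0.02 to 0.24), and JUN was not called. JUND (chromosome 19, 18279760 to 18281622, minus strand) stood at 34.67 and 40.29 TPM against 33.53 and 38.56 TPM, the single gene of the 9 whose groups overlapped. Its ratio was 0.962 (log2 -0.05 ± 0.10, 95% interval -0.30 to 0.19), and the sign turned to 0.13 after correction for GC content, which is 69.7% in the longest JUND transcript against a median of 48.4% over the tested genes.

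JUNB (chromosome 19, 12791496 to 12793315, plus strand, 1 exon), a JUN protein with weaker transactivation than JUN, had the highest ratio between groups in the family. It stood at 14.83 and 13.87 TPM in the Flag and at 24.22 and 21.58 TPM in the RNase H1 libraries, without overlap, a ratio of 1.60 (log2 0.64 ± 0.09, SE). Its exons overlap those of HOOK2 on the opposite strand, and since no use of strand is stated its value is uncertain. HOOK2 itself was at 24.43 and 21.17 TPM against 21.24 and 20.61 TPM, values with the same limit, and the part of shared reads in either gene was not tested. JUNB's share of the family went from 9.52% ± 0.654 to 13.7% ± 1.36 (SD, n = 2), while JUN held 65.7% ± 1.45 and 64.8% ± 0.373.

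ATF3 and MAFF were both higher. ATF3 (chromosome 1, 212565334 to 212620777, plus strand) was listed at 63.83 and 67.08 TPM in the Flag and at 138.65 and 145.39 TPM in the RNase H1 libraries, a ratio of 2.17 (log2 1.11 ± 0.05, SE). ATF3's mean over all 4 libraries, which includes the higher RNase H1 values, was above that of 90.3% of the tested genes. Its increase of the mean by 76.6 TPM was larger than the combined increase of the FOS family by 27.3 TPM. MAFF (chromosome 22, 38200767 to 38216511, plus strand) stood at 3.83 and 2.81 TPM against 11.98 and 12.75 TPM, a ratio of 3.72 (log2 1.64 ± 0.15). Its span overlaps PLA2G6, a phospholipase gene on the opposite strand with no shared exon, which went the other way, from 24.93 and 23.25 to 15.6 and 14.7 TPM (log2 -0.64 ± 0.08, limma adjusted p = 0.0144).

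**Figure D2:**
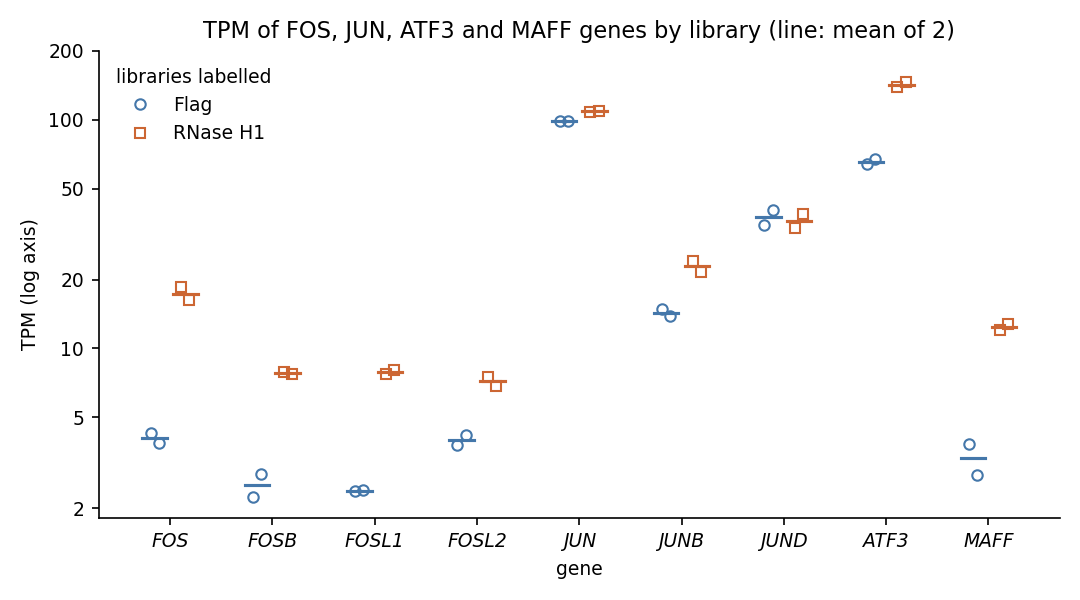
TPM (log axis) of the 9 genes in each library; open circles are the 2 Flag and open squares the 2 RNase H1 libraries, and lines are group means. The RNase H1 libraries lie above the Flag libraries for 8 genes, by a factor of 4.25 for FOS and 1.10 for JUN, and JUND overlaps.

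Of the 9 genes 7 were called higher by limma at an adjusted p under 0.05, 0 lower and 2, JUN and JUND, were not called. Of all 15651 tested genes 11.8% were called, 6.3% higher and 5.54% lower. The groups did not overlap for 8 of the 9 genes, all higher, where 60.7% of tested genes had no overlap, 31.3% in that direction. The genes were chosen with this contrast known, so these counts describe the choice and nothing is read from them. The median log2 fold change of the 9 was 1.11, beside 0.0035 over all tested genes. The calls need all 4 libraries: without Flag replicate 1, Flag replicate 2, RNase H1 replicate 1 or RNase H1 replicate 2 the count was 0, 1, 0 and 0, and over all genes 1, 15, 0 and 1, while the fold changes of the 7 genes stayed positive.

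**Figure D3:**
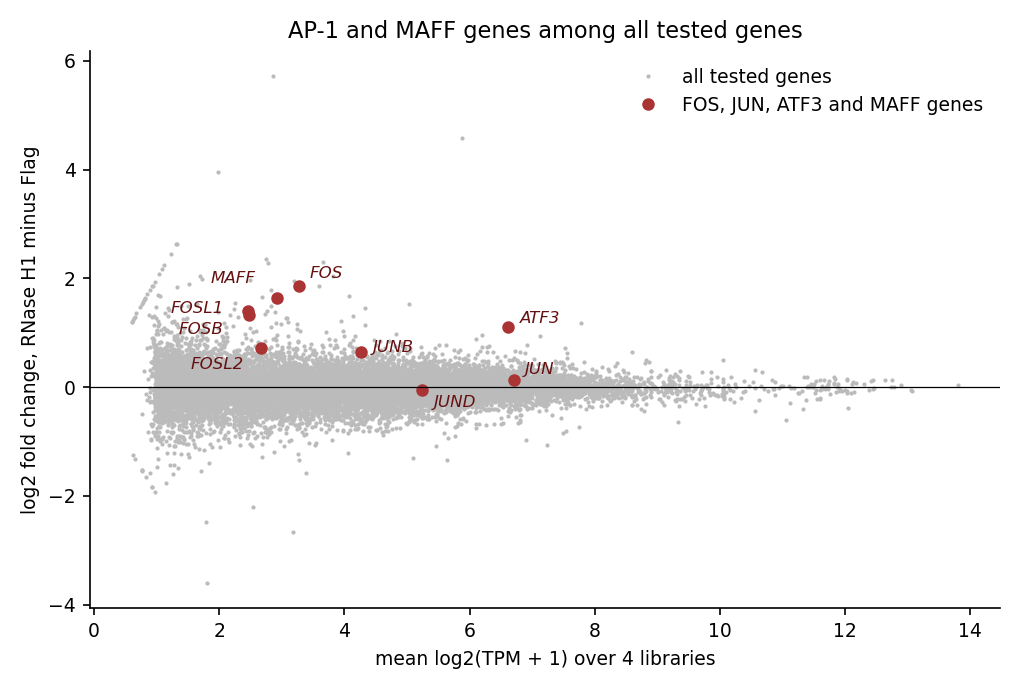
Log2 fold change (RNase H1 minus Flag, vertical axis) against mean log2(TPM + 1) over the 4 libraries (horizontal axis) for all 15651 tested genes in grey and the 9 genes in red. FOS, MAFF, FOSL1 and FOSB lie above the mass of genes at low levels, ATF3 at 1.11 among abundant transcripts, and JUN and JUND near 0.

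The transcript that dominated the pool was JUN in the libraries labelled Flag and ATF3 in those labelled RNase H1. The summed TPM of the 9 genes was 228.96 and 236.35 in the Flag and 357.69 and 366.8 in the RNase H1 libraries, 1.56 times as high. JUN supplied 43.3% and 41.9% of that sum in the Flag libraries and 30.1% and 29.9% in the RNase H1 libraries. ATF3 supplied 27.9% and 28.4%, then 38.8% and 39.6%. The ratio of ATF3 to JUN TPM accordingly went from 0.644 and 0.677 to 1.29 and 1.33.

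The JUN family as a whole held 64.9% and 64.8% of the sum in the Flag and 46.3% in both RNase H1 libraries. The FOS family held 5.54% and 5.61%, then 11.6% and 10.6%, a difference of 5.55 percentage points in the means. Per unit of JUN-family TPM there was 0.0860 ± 0.000924 (SD, n = 2) of FOS-family TPM in the Flag and 0.241 ± 0.0157 in the RNase H1 libraries, and JUN-family TPM thus exceeded that of the FOS family in every library. MAFF held 1.43% ± 0.342 and 3.41% ± 0.0896 of the sum. With 2 libraries against 2 the smallest two-sided exact permutation p is 0.333, so the shares are given without a test. They are shares of transcripts, and no protein or dimer was measured.

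Ordered by mean TPM, the genes in the Flag libraries ran JUN, ATF3, JUND, JUNB, FOS, FOSL2, MAFF, FOSB and FOSL1. The first 4 and FOS were separated by more than the spread of the libraries, and from FOS down each gene overlapped the next. In the RNase H1 libraries the order was ATF3, JUN, JUND, JUNB, FOS, MAFF, FOSL1, FOSB and FOSL2. There the ranges of neighbours overlapped only for FOSL1 and FOSB.

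**Figure D4:**
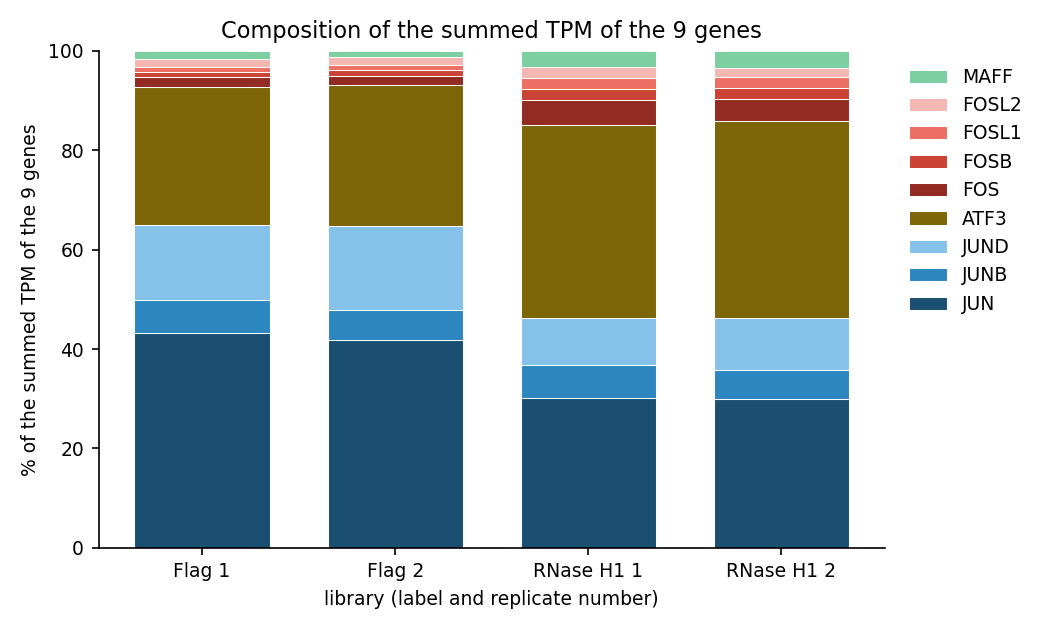
Share of each gene (%) in the summed TPM of the 9 genes, 1 stacked bar per library, with JUN-family genes in blue, ATF3 in brown, FOS-family genes in red and MAFF in green. The mean share of ATF3 is 28.1% in the Flag and 39.2% in the RNase H1 libraries, and that of JUN 42.6% and 29.99%.

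Among the small MAF genes MAFG had the highest TPM in every library and MAFF the highest ratio between groups. MAFG was listed at 20.85 and 21.52 TPM in the Flag and at 30.47 and 30.78 TPM in the RNase H1 libraries (log2 0.51 ± 0.07, limma adjusted p = 0.0155). MAFF's share of the MAFF, MAFG and MAFK sum was 10.5% and 7.88%, then 21.1% and 21.9%. MAFG's share was 58.8% ± 2.16 and 53.3% ± 0.498 (SD, n = 2). For MAFK the log2 fold change of 0.30 ± 0.09 did not pass (adjusted p = 0.0730).

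Among ATF1 to ATF7 with ATF6B the dominant transcript in both groups was ATF4, the translationally controlled effector of the integrated stress response. ATF4 stood at 667.88 and 699.04 TPM against 672.3 and 683.55 TPM, with a log2 fold change of -0.01 ± 0.04 (adjusted p = 0.864) that turned to 0.03 under quantile normalization and after GC correction. Its share of the ATF sum was 71.6% and 72.2%, then 65.7% and 66.7%. ATF3 was next in both groups, with 6.84% and 6.92%, then 13.6% and 14.2%.

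The other ATF, BATF, JDP and MAF genes differed less than the 9 genes, whose median log2 fold change was 1.11. Of 17 listed, 15 were tested, of which 2 were called higher, 1 lower and 12 not called, beside 11.8% of all genes called. The 15 had a median log2 fold change of 0.08. The called genes besides MAFG were ATF1, a CREB relative (0.34 ± 0.07, limma adjusted p = 0.0363, lost after GC correction with 0.0716), and ATF6B, an endoplasmic reticulum stress sensor (-0.49 ± 0.09, adjusted p = 0.0273). BATF, known from lymphocytes, was listed at 0 in every library.

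**Figure D5:**
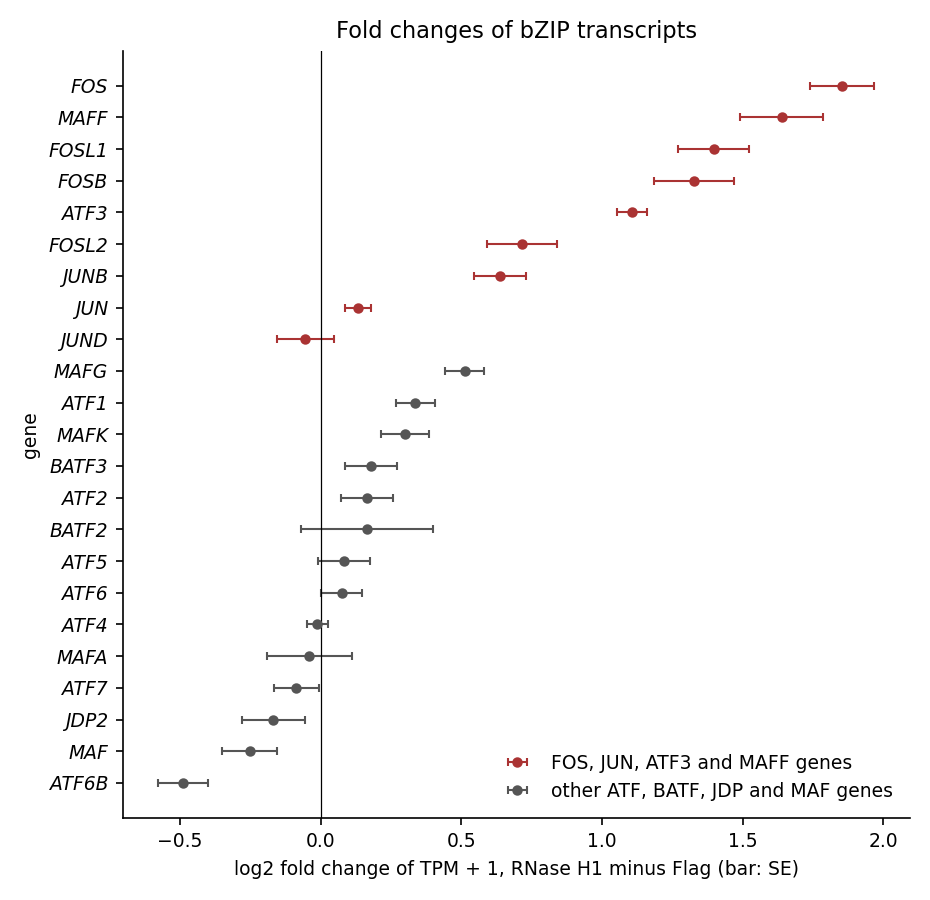
Log2 fold changes of TPM + 1 (points, RNase H1 minus Flag) with standard errors (bars) for the 9 genes in red and 14 of the 15 tested ATF, BATF, JDP and MAF genes in grey, each set sorted by value. The red points run from -0.05 for JUND to 1.85 for FOS and the grey points from -0.49 for ATF6B to 0.51 for MAFG.

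Further bZIP families include partners of small MAF and ATF proteins. Of 27 CNC, BACH, CEBP, CREB and PAR genes, 24 were tested. Of these 8 were called higher, 1 lower and 15 not called (37.5% called, beside 11.8% of all genes). Their median log2 fold change was 0.13. DDIT3, the stress factor CHOP, rose from 36.98 and 35.94 to 60.48 and 66.24 TPM (log2 0.78 ± 0.07, limma adjusted p = 0.00714). XBP1, a factor of the unfolded protein response and the most abundant of the list, rose by 0.52 ± 0.05 (adjusted p = 0.00881), and NFIL3, a repressor of PAR-type sites, by 0.48 ± 0.07 (adjusted p = 0.0192). NFE2L3, a CNC factor, fell from 31.2 and 32.13 to 21.49 and 21.98 TPM (log2 -0.52 ± 0.07, adjusted p = 0.0145).

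The genes of the kinases and cofactors that switch AP-1 genes on differed little at the transcript level. Of 27 genes (RAF, MEK, ERK, JNK and p38 kinases, RSK kinases, SRF, ELK and MRTF factors), 26 were tested, 0 were called higher, 2 lower and 24 not called (7.69% called, beside 11.8% of all genes). The median log2 fold change was 0.06. Both called genes belong to the p38 branch. MAPK12, the kinase p38 gamma, fell from 25.25 and 25.77 to 17.21 and 16.82 TPM (log2 -0.56 ± 0.07, limma adjusted p = 0.0145). MAP2K6, which activates p38 kinases, fell from 9.25 and 9.11 to 5.57 and 4.37 TPM (-0.78 ± 0.14, adjusted p = 0.0255). MAPK11, MAPK13, MAPK14 and MAP2K3, also of this branch, were not called, with log2 fold changes of 0.03, -0.08, 0.06 and 0.003. MAP2K2, the most abundant of the list, had a log2 fold change of -0.05 ± 0.08 (adjusted p = 0.714) that turned to 0.03 after GC correction. Phosphorylation, through which these kinases act, was not measured.

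Textbook AP-1 target genes were mostly low in these cells. Of 23 genes 13 reached the mean of 1 TPM needed for testing. Of these 5 were called higher, 1 lower and 7 not called (46.2% called, beside 11.8% of all genes). Their median log2 fold change was 0.36. HBEGF, a ligand of the EGF receptor, rose from 5.25 and 5.73 to 13.14 and 12.22 TPM (log2 1.08 ± 0.11, limma adjusted p = 0.00903). MMP13, a collagenase, rose from 0.33 and 0.28 to 1.66 and 2.11 TPM (1.14 ± 0.22, adjusted p = 0.0313), a level at which the added 1 makes the change smaller than the ratio. Genes like MMP13, under 1 TPM in both Flag libraries, entered the test only through their RNase H1 values. Their calls, and with them the counts and median of this list, therefore partly follow from the filter. TIMP1, a metalloproteinase inhibitor, rose by 0.36 ± 0.05 (adjusted p = 0.0140). GJA1, the gap junction protein connexin 43, fell from 41.96 and 40.9 to 31.12 and 28.31 TPM (-0.47 ± 0.07, adjusted p = 0.0196). EZR, the membrane linker ezrin, which had the highest mean of the list over the 4 libraries, stood at 136.53 and 138.59 against 139.59 and 140.07 TPM and was not called (0.02 ± 0.04, adjusted p = 0.749). The cytokine genes IL2 and CSF2 were listed at 0 in every library.

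Of 10 genes that act in the turnover of AP-1 mRNA or protein, 1 was called higher, 1 lower and 8 not called. Over all tested genes 11.8% were called. The median log2 fold change of the list was 0.03. ZFP36, which binds AU-rich elements and promotes decay of early gene mRNAs, rose from 6.79 and 6.14 to 10.76 and 10.32 TPM (log2 0.63 ± 0.11, limma adjusted p = 0.0242). HNRNPD, another AU-rich element binder and the most abundant of the list, fell from 694.91 and 684.28 to 580.93 and 572.25 TPM (-0.26 ± 0.03, adjusted p = 0.0145). Each call named here for a gene of these 5 lists was lost when any 1 library was left out, with its direction kept.

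Genes whose values ran most like those of FOS and JUN over the 4 libraries were found by the Euclidean distance between mean-centred log2(TPM + 1) values, among 11245 genes whose mean reached 5 TPM. Closest to FOS were RFPL4A (distance 0.184), ANKRD1 (0.207), a YAP target, and ANXA1 (0.227), a phospholipid-binding annexin. RFPL4A has a near-identical copy and its value is uncertain. ANXA1 was listed at 9.47 and 7.48 TPM in the Flag and at 30.14 and 28.25 TPM in the RNase H1 libraries. Closest to JUN, which had the highest mean of the 9 genes over the 4 libraries, were CD63 (0.0109), a tetraspanin, TFG (0.0110), a protein of the secretory pathway, and SNAP47 (0.0111), a SNARE protein. CD63 was at 287.27 and 289.84 TPM against 312.53 and 317.95 TPM, a ratio of 1.09 beside 1.10 for JUN, and was called after GC correction (limma adjusted p = 0.0486) but not without it (0.0780). Distances over 4 libraries describe likeness of values only.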

How the data were processed

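The authors deposited 1 table of TPM with a column per library, and it was used as given. Per the submitters' processing notes STAR and hg38 were used; their versions, the program that made the TPM, its annotation and whether strand was used could not be read from the labels, file header or notes used here. TPM keeps no depth, so no counting interval was computed. Columns were matched to samples by title. Genes averaging 1 TPM or more were tested on log2(TPM + 1) with limma 3.58.1 in R 4.3.3 (group term, variances following an intensity trend, two-sided, Benjamini-Hochberg adjustment over 15651 genes, threshold 0.05), a procedure also tested on simulated data. Gene models came from GENCODE release 29 on GRCh38, and 97.9% of the tested genes had a GC value. Promoter windows came from RefSeq. The members, companion lists and motifs were chosen with earlier results of these data known. Text names all 9 members, from each companion list the called genes if 4 or fewer and otherwise the 4 of smallest p, the gene of each list with the highest mean TPM over the 4 libraries, and the 3 genes nearest to FOS and to JUN. MAFK, BATF, IL2, CSF2, HOOK2, ERCC1 and PLA2G6 were added after their values were seen. Alternatives were other pseudocounts, filters, scalings and variance models, the replicate block, leaving out each library and, added after seeing the data, a GC correction (spline with 4 degrees of freedom per library). Some items are not reported here. Figures were drawn with matplotlib 3.10.9.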

Additional observations from a re-analysis of the deposited data

How the results depend on the processing

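Over the 14 alternatives the 7 called genes (FOS, FOSB, FOSL1, FOSL2, JUNB, ATF3, MAFF) stayed higher and JUN stayed positive and not called. All 7 were called in 8 of the 10 alternatives that keep all libraries. With no filter on low values 0 of them were called and 0 of all genes (8 members and 5655 genes at an unadjusted p under 0.05 by limma), and in limma without its intensity trend 0 and 1 (7 and 4337). Leaving out 1 library gave 0 to 1 called members and 0 to 15 called genes, fits in which the lone library is assumed to vary like the other group. The difference in FOS-family share lay between 5.04 and 6.06 percentage points when 1 library was left out. The log2 fold change of JUND reversed to 0.128 after GC correction and ranged from -0.160 to 0.0512 over the fits lacking 1 library (0.0512 lacking oeFlag replicate 2, 0.0438 lacking oeRNH1 replicate 1). That of ATF4 reversed to 0.0255 under quantile normalization and to 0.0305 after GC correction, and ranged from -0.0442 to 0.0215 over the fits lacking 1 library (0.0215 lacking oeFlag replicate 2, 0.00056 lacking oeRNH1 replicate 1). That of MAP2K2 reversed to 0.0280 after GC correction and ranged from -0.173 to 0.0704 over the fits lacking 1 library (0.0704 lacking oeRNH1 replicate 1). The cause was not tested. The labels do not say whether libraries with the same replicate number were handled together. Deviations of same-numbered libraries correlated at 0.03 over genes. With the replicate block 2442 genes were called, beside 1853 in the main fit, and the same count of 7 members. Depth is unknown, which limits what can be said of genes near 1 TPM.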
